A study of Mus musculus with 6 samples.

Results

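The libraries described here came from mice that carry the R403Q substitution in one copy of the cardiac alpha myosin heavy chain gene Myh6, a model of hypertrophic cardiomyopathy, and compare those fed empagliflozin (R403Q-EMPA, 2 libraries) with those fed control diet (R403Q-CD, 2 libraries). RNA of single nuclei was sequenced from frozen left ventricle of male mice aged 12 weeks. Both diets held lard as fat and no sucrose, and the EMPA diet also held 0.15 mg of empagliflozin per g, about 15 mg/kg. Diets began at 9 to 10 weeks of age. A further pair of libraries from wild type littermates on control diet (WT-CD) entered the estimate of the spread and is given for orientation. Every animal of both R403Q groups carried the mutant allele next to a normal one, so both groups share 1 genotype. The mutation is inherited and so is present in all cells, and the drug was given to the whole animal. A barcode was taken as a nucleus when it held at least 500 UMIs (unique molecular identifiers, each standing for 1 captured RNA molecule), at least 300 genes, and no more than 5% of UMIs that came from genes of the mitochondrial genome. By this rule 30241 R403Q nuclei were kept, of 48438 in all 6 libraries.

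Empagliflozin inhibits the sodium-glucose cotransporter SGLT2, which returns filtered glucose to the blood in the kidney, so that treated animals lose glucose and sodium in the urine and draw more on fat and ketone bodies. Chaperones are proteins that fold other proteins: those of the cytosol are induced together by heat shock factors, and those of the endoplasmic reticulum (ER) by the unfolded protein response. Clock genes form a feedback loop in almost every cell, in which Arntl (BMAL1) and Clock drive the transcription of their own repressors and of output genes such as Dbp, so that their RNA levels follow the time of day and the time of feeding.

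The kept nuclei numbered 7939 and 7305 in R403Q-CD replicates 1 and 2 against 8243 and 6754 in R403Q-EMPA. Total depth was 38804980 and 43872197 UMIs in R403Q-CD against 45397128 and 31787308 in R403Q-EMPA, with medians of 3431, 4119, 3664 and 2722.5 UMIs per kept nucleus in the same order. The median mitochondrial percent of kept nuclei was higher in both treated libraries, at 2.42% and 3.01% against 1.97% and 2.12% in R403Q-CD, and its part in the results was not tested beyond the fit without the limit. The mitochondrial limit removed 27.2% and 32.9% of the R403Q-CD barcodes and 34.4% and 39.0% of those of R403Q-EMPA. Counts of replicates differed by more than sampling noise. The chi-square per degree of freedom was 8.18 in R403Q-CD, 38.9 in R403Q-EMPA and 54.0 in WT-CD. By this measure the R403Q-CD libraries were the most alike and the WT-CD libraries the least. Across all 6 libraries, 538 barcode sequences occurred in more than 1 library. The sources do not say how many animals made a library, so p-values measure the spread between these samples, which may be technical. The time of day at which tissue was taken is not given in the sources used here. The drug's target Slc5a2 (SGLT2) gave 7 and 5 UMIs in R403Q-CD against 6 and 4 in R403Q-EMPA, and Slc5a1 (SGLT1) gave 3 and 2, and 5 and 5. Both were too low to test. Myh6 stood at 3274 and 3187 CPM (UMIs per 1000000 UMIs of the sum) in R403Q-CD against 3575 and 4318 in R403Q-EMPA (log2 fold change 0.29, adjusted p = 0.657), and counts per gene do not tell the mutant from the normal allele.

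To compare R403Q-EMPA with R403Q-CD hearts as a whole, UMIs of all kept nuclei were summed per library. The hour of tissue collection is not given, and its part in the differences below, chaperones included, was not tested. Cytosolic chaperones led the result. Of 19233 genes tested, 12 were higher in R403Q-EMPA (0.0624%) and 2 were lower (0.0104%) at an adjusted p under 0.05 by edgeR's quasi-likelihood test with Benjamini-Hochberg adjustment. Of the 12, 7 were cytosolic chaperones or co-chaperones of a list of 25, and Ahsa2, an activator of HSP90, was an additional gene of this machinery outside the list. The other 4 higher genes were P4ha1, Egln3, Mrps6 and Hapln1, and the lower genes were Cd247 and Nr1h4. These sums cannot tell a change in the number of cells of a type from a change in RNA per cell.

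**Figure D1:**
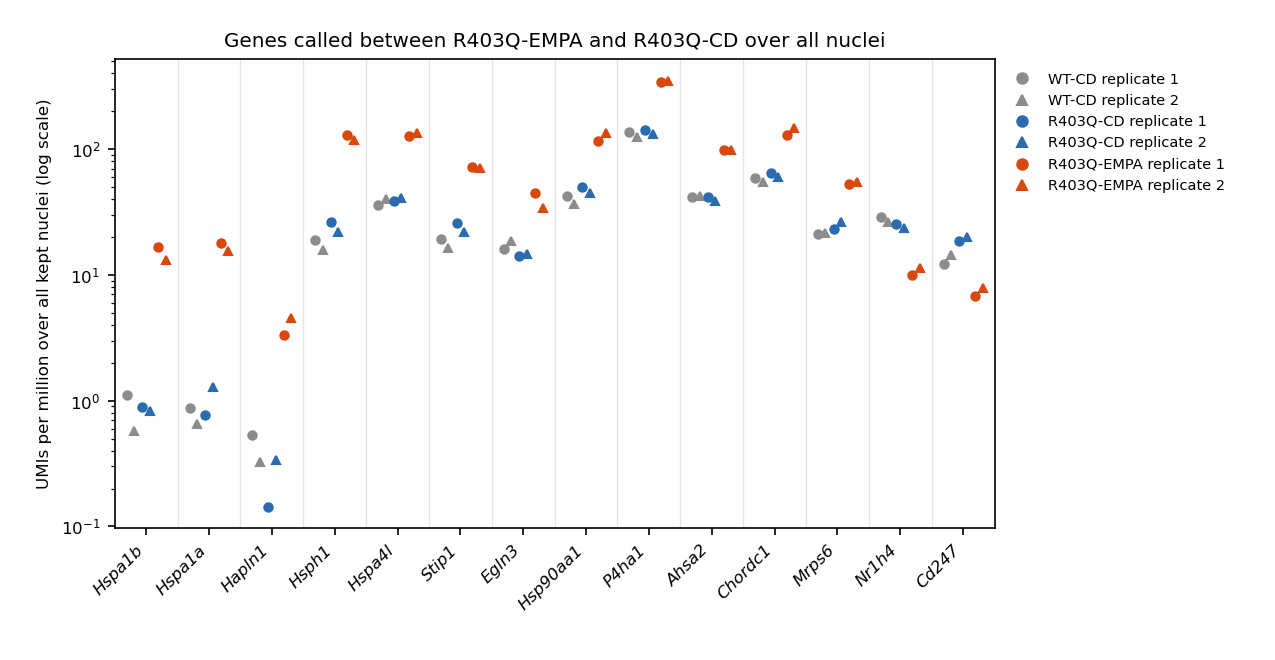
CPM of the 14 genes that passed the test over all nuclei, on a log axis, with 1 point per library of WT-CD, R403Q-CD and R403Q-EMPA. In every gene shown the R403Q-EMPA libraries lie on one side of the R403Q-CD libraries, as for Hspa1a, at 18.0 and 15.6 against 0.775 and 1.29 CPM. The rule for naming genes required this, so it is no added evidence.

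Hspa1a and Hspa1b encode the inducible HSP70, a chaperone that is nearly silent in unstressed cells. Hspa1a was at 0.775 and 1.29 CPM in R403Q-CD and at 18.0 and 15.6 CPM in R403Q-EMPA, a 16.1-fold rise (log2 4.01, SE 0.28, adjusted p = 0.00735). Its R403Q-CD levels lay close to those of WT-CD, at 0.875 and 0.650 CPM, and only the EMPA libraries were high. Hspa1b rose 17.3-fold, from 0.8896 and 0.827 CPM to 16.7 and 13.0 CPM (adjusted p = 0.0114). The 2 genes are near-identical copies, and reads may have been divided between them by the counting, so they are best read as a pair. Hsph1, the HSP110 that reloads HSP70 with ATP, was at 26.3 and 21.7 CPM in R403Q-CD and at 129 and 117 CPM in R403Q-EMPA (5.13-fold, log2 2.36, SE 0.16, adjusted p = 0.00735). Hspa4l, a second member of the HSP110 family, was at 39.0 and 41.0 CPM against 126 and 135 CPM (3.26-fold, adjusted p = 0.00735). In both, the R403Q-EMPA libraries lay close to each other and far above the controls.

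The HSP90 machine moved in the same direction at smaller size. Hsp90aa1, the inducible HSP90, was at 49.99 and 44.7 CPM in R403Q-CD and at 117 and 135 CPM in R403Q-EMPA (2.66-fold, adjusted p = 0.0308). Stip1, which hands client proteins from HSP70 to HSP90, was at 25.6 and 22.1 against 72.4 and 70.4 CPM (2.99-fold, adjusted p = 0.0155). The groups did not overlap in either. Ahsa2 rose from 41.6 and 38.9 to 99.1 and 98.0 CPM (log2 1.29, SE 0.11, adjusted p = 0.0155), and the HSP90 co-chaperone Chordc1 from 64.5 and 59.9 to 130 and 147 CPM (log2 1.16, SE 0.13, adjusted p = 0.0454). All 25 listed chaperones had both R403Q-EMPA libraries above both R403Q-CD libraries, which held for 26.8% of all genes tested, and their median log2 fold change was 1.05 against 0.0095 over all genes. Besides the 7 that passed, 16 of the 25 had an unadjusted p under 0.05, as had 2625 of all 19233 genes tested. Dnaja1, an HSP40 that feeds substrates to HSP70, was at 143 and 101 CPM against 275 and 276 CPM without passing the test (log2 1.18, adjusted p = 0.0886). Hsf1, the heat shock factor itself, was level at 37.0 and 36.8 CPM against 38.1 and 38.9 CPM (log2 0.06, adjusted p = 0.859).

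DESeq2 called all 14 genes among 559, which it split into 251 higher and 308 lower, so the balance of directions was not shared between the tools. The calls of edgeR depended on single libraries. With 1 library left out, the count of 14 became 3 without R403Q-CD replicate 1, 7 without WT-CD replicate 2 and 87 without R403Q-EMPA replicate 2. It became 0 without R403Q-CD replicate 2 (edgeR, 1392 genes at an unadjusted p under 0.05, smallest adjusted p 0.0565) and 0 without R403Q-EMPA replicate 1 (2445 genes, smallest adjusted p 0.0583). The median of the chaperone list stayed between 0.86 and 1.13 in all alternatives run, with all 25 genes above 0 in each.

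Because a heat shock response works through short DNA elements, the promoters of the listed chaperones were read from RefSeq (mouse build GRCm38.p6, 250 bases before the start site). The core of the heat shock element was searched as GAANNTTC, which reads the same on both strands. It lay in 6.69% of 32851 promoters and in 8 of the 26 promoters of the 19 listed genes that matched (30.8%). Promoters are shown for genes that passed the test over all nuclei or within a cell class, from 180 to 61 bases before the start, 5′ to 3′ on the gene's strand, with the element in capitals.
Hspa1a (chr17:34972217-34972336, minus strand): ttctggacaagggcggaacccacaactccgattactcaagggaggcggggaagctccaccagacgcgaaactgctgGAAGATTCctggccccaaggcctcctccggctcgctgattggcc
Hspb1 (chr5:135887739-135887858, plus strand): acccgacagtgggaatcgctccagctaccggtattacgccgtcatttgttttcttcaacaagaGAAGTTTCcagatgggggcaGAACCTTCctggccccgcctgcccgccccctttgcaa
Dnaja1 (chr4:40722288-40722407, plus strand): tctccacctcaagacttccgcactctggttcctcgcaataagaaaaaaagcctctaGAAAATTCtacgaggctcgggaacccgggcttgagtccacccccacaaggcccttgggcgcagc
Fkbp4 (chr6:128438717-128438836, minus strand): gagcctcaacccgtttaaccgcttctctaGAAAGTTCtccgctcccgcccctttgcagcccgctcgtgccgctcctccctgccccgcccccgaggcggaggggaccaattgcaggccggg
Hspe1 (chr1:55087968-55088087, plus strand): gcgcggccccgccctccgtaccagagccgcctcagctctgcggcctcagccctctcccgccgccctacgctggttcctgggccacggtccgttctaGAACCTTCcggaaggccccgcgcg
The same stretch of Hspa1b (chr17:34959299-34959418, minus strand) is identical to that of Hspa1a in 120 of 120 bases. The match of Hspd1, 139 bases before its start, is the same site as that of its neighbour Hspe1, read on the other strand, and is not printed again. The match begins 104 bases before the start in Hspa1a, 124 in Dnaja1, 151 in Fkbp4 and 84 in Hspe1, and Hspb1 holds 2 matches, at 117 and 97 bases. Of the 14 genes that passed over all nuclei 13 matched a promoter, and of these only Hspa1a and Hspa1b held GAANNTTC in this window. Other arrangements of the element were not searched. A match is a run of letters and not a shown binding site.

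To see in which cells the chaperones moved, nuclei were clustered and clusters were named by fixed marker genes, after removal of predicted doublets. Names are written with "-like" because no label types a nucleus. There were 10 groups with enough nuclei to test, of which 1, cluster 0, expressed all 6 pericyte markers but also a marker of another class among its leading genes, so it is called by number. Over these groups 217 genes passed the test in at least 1, 40 in at least 2 and 10 in at least 4, and all 14 genes called over all nuclei passed in at least 1. Hsph1 rose in 7 of the 9 groups in which it could be tested, with log2 fold changes from 1.34 to 3.77. Hspa1b rose in 5 of 6, Stip1 in 5 of 8, Hspa4l, Hsp90aa1 and Chordc1 each in 5 of 10, and Hspa1a in 4 of 7. In all, 17 of the 25 listed chaperones rose in at least 1 group. All 17 did so in cluster 0, where 0.385% of all genes rose.

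**Figure D2:**
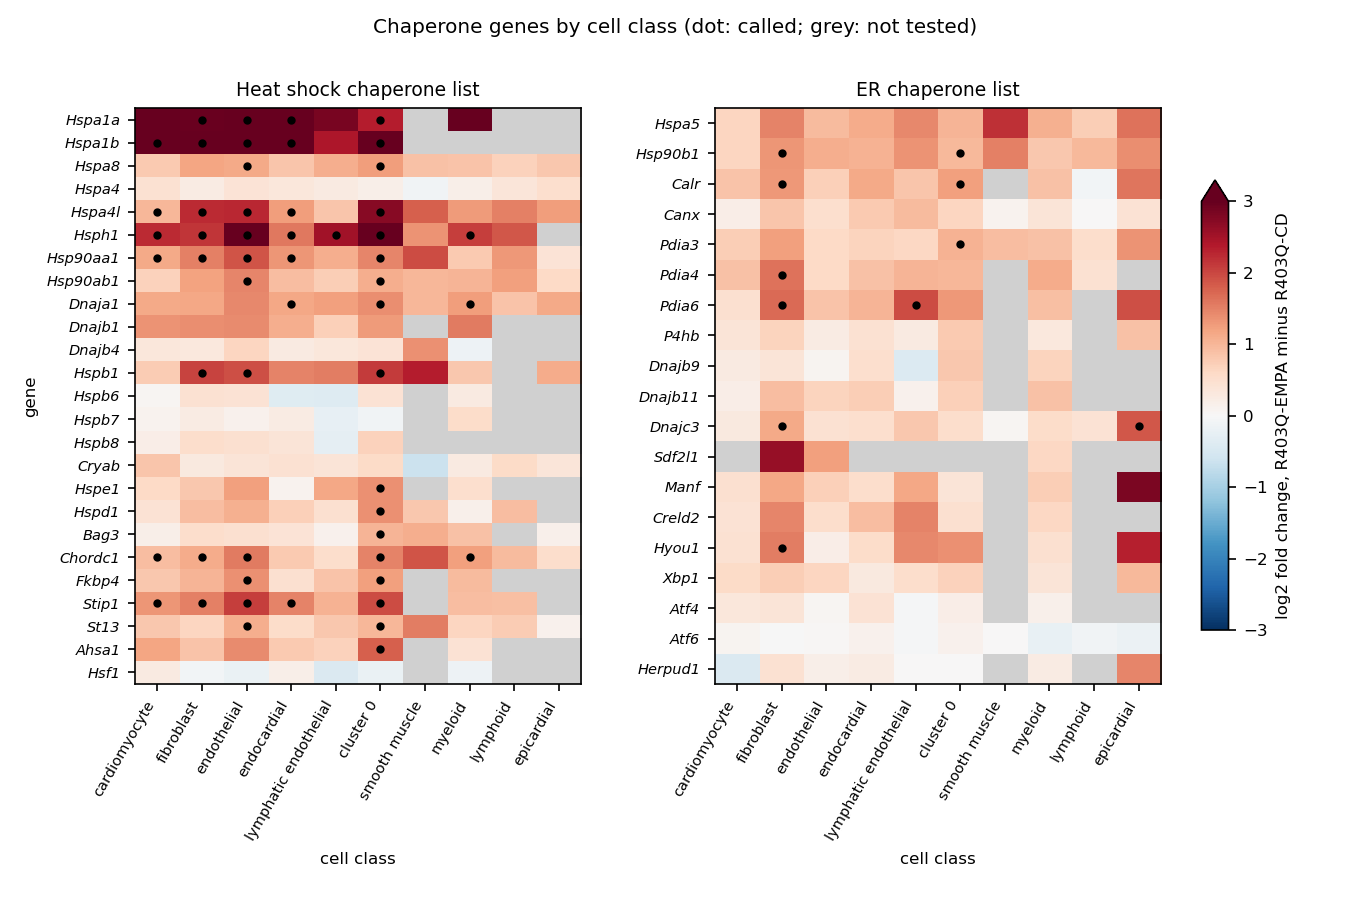
Log2 fold change, R403Q-EMPA against R403Q-CD, of cytosolic and ER chaperones (rows) in the cell groups (columns), with a dot where the gene passed the test and grey where it was not tested. Hsph1 is above 0 in all 9 groups tested and is largest in endothelial-like nuclei, at 3.77.

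Endothelial-like nuclei, which line the vessels, had the highest chaperone list median of the 10 groups. Hspa1a was at 1.05 and 1.28 CPM in R403Q-CD and at 39.6 and 63.8 CPM in R403Q-EMPA (log2 5.42, SE 0.36, adjusted p = 0.000555), and Hspa1b went from 0.450 and 0.709 to 31.4 and 45.5 CPM (log2 5.97, adjusted p = 0.000555). Hsph1 was at 13.2 and 8.93 CPM against 151 and 151 CPM (log2 3.77, SE 0.27, adjusted p = 0.000699). Both EMPA libraries stood far above both controls. Of the 25 listed chaperones, 12 rose here, against 0.193% of all genes of this class. Of the 25, 22 had both R403Q-EMPA libraries above both controls, against 23.3% of all genes, and the median was 1.36. In fibroblast-like nuclei 8 rose, against 0.212% of all genes, and 24 lay above in this way, against 26.1%, with a median of 1.01. There Hspb1, the small heat shock protein HSP27, was at 14.2 and 17.4 CPM in R403Q-CD and at 68.0 and 61.4 CPM in R403Q-EMPA (log2 2.04, adjusted p = 0.0299), and Hspa4l rose by 2.24 (adjusted p = 0.00386).

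In cardiomyocyte-like nuclei 6 chaperones rose (Hspa1b, Hspa4l, Hsph1, Hsp90aa1, Chordc1 and Stip1), against 0.111% of all genes, with a list median of 0.82. Of the 25, 22 lay above both controls in both treated libraries, against 27.2% of all genes. Hsph1 was at 12.1 and 12.5 CPM in R403Q-CD and 67.2 and 48.8 CPM in R403Q-EMPA (log2 2.24, adjusted p = 0.00294). Hspa1b gave 1 and 0 UMIs in R403Q-CD against 64 and 19 in R403Q-EMPA, 69.9-fold more in pooled UMIs (counting interval 12.2 to 2800, adjusted p = 0.0477). Its control level here was near 0, and its log2 change of 5.69 ranged from 4.72 to 8.12 over the alternatives. Hspa4l rose less than in the other large classes, from 45.5 and 45.7 to 100.4 and 81.1 CPM (log2 0.99, adjusted p = 0.042). The difference between classes was tested within libraries. The change of Hspa4l in cardiomyocyte-like nuclei was smaller than in fibroblast-like nuclei by 1.27 (adjusted p = 0.0268) and than in endothelial-like nuclei by 1.28 (adjusted p = 0.00535). Hsph1 rose by 1.56 less in cardiomyocyte-like (adjusted p = 0.00659) and by 1.65 less in fibroblast-like (adjusted p = 0.00533) than in endothelial-like nuclei. Hspb1 did not pass in cardiomyocyte-like nuclei (log2 0.75, adjusted p = 0.253), and its change there was below that in fibroblast-like nuclei by 1.33 (adjusted p = 0.0199) and that in endothelial-like nuclei by 1.20 (adjusted p = 0.0181). In total, 105 genes differed in their response between cardiomyocyte-like and fibroblast-like nuclei (0.639%), 150 between cardiomyocyte-like and endothelial-like nuclei (0.941%) and 68 between fibroblast-like and endothelial-like nuclei (0.435%). Single libraries moved these counts. The first was 7, 4, 27 and 336 without R403Q-CD 1, R403Q-CD 2, R403Q-EMPA 1 and R403Q-EMPA 2, and 159 and 162 without WT-CD 1 and 2. The second was 40, 96, 71 and 399 in the same order, and 91 and 96 without the WT-CD libraries. The last was 0 without R403Q-CD 1 (edgeR, 1003 genes at an unadjusted p under 0.05), 4 without R403Q-CD 2, 707 without R403Q-EMPA 2, and 29 and 19 without the WT-CD libraries.

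Chaperones were also higher in several smaller groups. In cluster 0, 17 of 25 rose, against 0.385% of all genes, and 20 lay above both controls in both treated libraries, against 20.8% of all genes, with a median of 1.27. Hsph1 was at 27.5 and 23.4 CPM against 218 and 216 CPM there (log2 3.09, adjusted p = 2.89e-07), and Hspa4l at 42.1 and 31.3 against 233 and 255 CPM (log2 2.74, adjusted p = 3.97e-06). In endocardial-like nuclei 7 rose, against 0.52% of all genes, and 21 lay above in both, against 22.3%. Among the 7 was Hspa1a (log2 4.00, adjusted p = 0.0102). In myeloid-like nuclei Hsph1, Dnaja1 and Chordc1 rose, Hsph1 from 29.1 and 19.1 to 110.1 and 90.8 CPM (adjusted p = 0.0142). In lymphatic endothelial-like nuclei Hsph1 rose from 23.4 and 25.6 to 135 and 149 CPM (adjusted p = 0.00237). In lymphoid-like nuclei 0 of 12 tested chaperones passed (edgeR, 7 at an unadjusted p under 0.05, and 0 by DESeq2), with a median of 0.91.

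ER chaperones formed a second group. Over all nuclei 0 of 19 tested genes passed (edgeR, 15 at an unadjusted p under 0.05, 8 by DESeq2), while 18 of 19 had both R403Q-EMPA libraries above both R403Q-CD libraries, against 26.8% of all genes, and the median was 0.80. In fibroblast-like nuclei, which make and secrete matrix proteins through the ER, 6 of 19 rose, against 0.212% of all genes of this class, 18 lay above both controls in both treated libraries, against 26.1%, and the median was 1.15. Pdia6, a disulfide isomerase, was at 28.0 and 32.7 CPM in R403Q-CD and at 103 and 92.6 CPM in R403Q-EMPA (log2 1.69, adjusted p = 0.0306). Hsp90b1 (GRP94), the HSP90 of the ER, was at 148 and 176 against 384 and 427 CPM (log2 1.32, adjusted p = 0.0493). In both genes the R403Q-EMPA libraries were more than 2-fold above either control. Dnajc3, a co-chaperone of BiP, was at 101 and 105 against 234 and 222 CPM (log2 1.15, adjusted p = 0.0416), and Hyou1, Calr and Pdia4 also rose, by 1.54, 1.31 and 1.62. Hspa5 (BiP), the main ER chaperone, was at 104 and 129 against 329 and 321 CPM and missed the threshold (log2 1.48, adjusted p = 0.0754). In cardiomyocyte-like nuclei 0 of 18 passed (edgeR, 7 at an unadjusted p under 0.05, 1 by DESeq2), with a median of 0.44, and in endothelial-like nuclei 0 of 19 (10 and 2), with a median of 0.59.

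The change in fibroblast-like nuclei was tested against that in the other large classes, and most ER chaperones did not differ at the threshold. Against cardiomyocyte-like nuclei 3 of 19 passed, with a change in fibroblast-like nuclei greater by 1.25 for Pdia6 (adjusted p = 0.0345), by 0.88 for Hspa5 (adjusted p = 0.0349) and by 0.89 for Dnajc3 (adjusted p = 0.0395), the difference being coded as cardiomyocyte minus fibroblast at −1.25, −0.88 and −0.89. Against endothelial-like nuclei 4 of 19 passed, and the change was greater by 1.01 for Pdia4 (adjusted p = 0.0333), 0.82 for Pdia6 (adjusted p = 0.0304), 0.69 for Dnajc3 (adjusted p = 0.0331) and 0.65 for Pdia3 (adjusted p = 0.0473). Among those that did not pass, Hsp90b1 differed from endothelial-like nuclei by 0.23 (adjusted p = 0.571) and from cardiomyocyte-like nuclei, coded as before, by −0.72 (adjusted p = 0.0825), and Calr by 0.57 (adjusted p = 0.0752) and −0.49 (adjusted p = 0.281). Outside the large classes, Pdia6 rose in lymphatic endothelial-like nuclei (log2 1.95, adjusted p = 0.0201), and Dnajc3 in epicardial-like nuclei, from 126 and 125 to 412 and 521 CPM (log2 1.87, adjusted p = 0.0264). DESeq2 called neither (adjusted p = 0.14 and 0.942). Pdia6 lost its call there without each of the 4 R403Q libraries in turn (adjusted p = 0.0876 to 0.814), and Dnajc3 also missed the threshold with the R403Q libraries alone (adjusted p = 0.0756) and without R403Q-CD 2 (adjusted p = 0.218). Promoters of this list were searched for the ER stress response element, on both strands, as CCAAT, any 9 bases and CCACG. It lay in 0.113% of RefSeq promoters (37 of 32851) and in 7 of 17 of the list (41.2%), those of Calr, Canx, Creld2, Dnajc3, Hsp90b1, Hspa5 and Pdia6. The promoters of Pdia6 and Dnajc3, whose changes differed between classes in 2 of the 3 pairs tested, are shown over the same window of GRCm38.p6 with the element in capitals.
Pdia6 (chr12:17266409-17266528, plus strand): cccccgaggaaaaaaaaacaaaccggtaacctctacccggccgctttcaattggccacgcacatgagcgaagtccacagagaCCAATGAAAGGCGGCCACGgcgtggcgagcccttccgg
Dnajc3 (chr14:118937752-118937871, plus strand): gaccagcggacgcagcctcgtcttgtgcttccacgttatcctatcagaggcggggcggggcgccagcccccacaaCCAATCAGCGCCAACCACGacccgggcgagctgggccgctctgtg
The element begins 98 bases before the start in Pdia6 and 105 in Dnajc3.

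Of the remaining genes over all nuclei, P4ha1, the catalytic subunit of the prolyl hydroxylase that matures collagen, was the most widely shared. It was at 141 and 133 CPM in R403Q-CD and at 342 and 350 CPM in R403Q-EMPA (log2 1.34, SE 0.13, adjusted p = 0.0308), and its WT-CD levels of 136 and 124 CPM lay beside those of R403Q-CD. It rose in 6 of 10 groups, by 0.70 to 1.88 over all groups. In endothelial-like nuclei it went from 144 and 125 to 472 and 518 CPM (log2 1.88, adjusted p = 0.000754), and in cardiomyocyte-like nuclei from 48.9 and 54.1 to 166 and 163 CPM (log2 1.68, adjusted p = 0.00294). Egln3 (PHD3), an oxygen-sensing prolyl hydroxylase, was at 14.1 and 14.5 against 44.6 and 34.0 CPM over all nuclei (log2 1.46, SE 0.17, adjusted p = 0.0467). In cardiomyocyte-like nuclei it rose from 17.4 and 18.3 to 63.2 and 49.3 CPM (log2 1.66, adjusted p = 0.0162), and it did not pass in the other 6 groups where it was tested. Mrps6, a protein of the mitochondrial ribosome, went from 23.3 and 26.2 to 52.9 and 54.3 CPM (log2 1.11, SE 0.12, adjusted p = 0.0454). It overlaps the inositol transporter gene Slc5a3, so reads of the pair may be mixed.

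Hapln1, which ties hyaluronan to proteoglycans in the matrix, was at 0.144 and 0.336 CPM in R403Q-CD and at 3.32 and 4.54 CPM in R403Q-EMPA (log2 3.99, SE 0.45, adjusted p = 0.0467), from 5 and 13 UMIs against 133 and 109. It missed the threshold with the R403Q libraries alone (adjusted p = 0.0643), without either WT-CD library (adjusted p = 0.0613 and 0.0618), and without R403Q-CD 1 (log2 3.53, adjusted p = 0.306), R403Q-CD 2 (log2 4.73, adjusted p = 0.19) and R403Q-EMPA 1 (adjusted p = 0.12). Most of these molecules came from endocardial-like nuclei, where it gave 1 and 3 UMIs against 99 and 72. Cd247, the zeta chain of the T-cell receptor complex, fell from 18.7 and 19.9 to 6.77 and 7.92 CPM (log2 −1.40, SE 0.16, adjusted p = 0.0467), with WT-CD between at 12.3 and 14.4 CPM. Within lymphoid-like nuclei it was at 1606 and 1748 against 1481 and 1378 CPM (log2 −0.23), while lymphoid-like nuclei made up a smaller share of both R403Q-EMPA libraries (a mean of 0.745% against 1.35% of nuclei). Without the mitochondrial limit the shares of the groups overlapped (1.14% against 1.22%). Nr1h4, the bile acid receptor FXR, fell from 25.3 and 23.4 to 9.94 and 11.3 CPM (log2 −1.20, SE 0.14, adjusted p = 0.0467). When every library was given the same number of nuclei of each class, Cd247 (log2 −0.73, adjusted p = 0.276), Nr1h4 (−0.88, adjusted p = 0.061) and Egln3 (1.05, adjusted p = 0.128) no longer passed, and 11 of the 14 genes did. Cd247 also did not pass with predicted doublets removed (−1.39, adjusted p = 0.0612), and without the mitochondrial limit neither Cd247 (−0.85, adjusted p = 0.314) nor Egln3 (1.30, adjusted p = 0.0925) passed.

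Of the clock genes 0 of 19 tested passed over all nuclei (edgeR, 14 at an unadjusted p under 0.05, 10 by DESeq2). Arntl, which peaks opposite to the output genes, was at 10.2 and 9.84 CPM in R403Q-CD and 31.7 and 39.6 CPM in R403Q-EMPA (log2 1.83, adjusted p = 0.0769). The output gene Dbp was at 37.2 and 44.4 against 16.3 and 9.21 CPM (log2 −1.67, adjusted p = 0.0937), and the repressor Nr1d1 at 18.2 and 21.3 against 7.81 and 5.25 CPM (log2 −1.58, adjusted p = 0.0886). The groups were apart in each of these, Arntl upward and the other two downward. Of the list, 7 genes lay with both R403Q-EMPA libraries above both controls, against 26.8% of all genes, and 10 with both below, against 26.4%, with a median of −0.32. Per2 and Cry1, at log2 0.10 and 0.09, were close to level.

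By class, Arntl rose in fibroblast-like nuclei from 5.60 and 5.04 to 31.0 and 19.02 CPM (log2 2.24, adjusted p = 0.049) and in endothelial-like nuclei from 7.64 and 8.51 to 28.0 and 42.0 CPM (log2 2.07, adjusted p = 0.0246). In endocardial-like nuclei it rose from 1.60 and 6.53 to 72.0 and 48.3 CPM (log2 3.67, adjusted p = 0.0039), and it rose in cluster 0 (log2 2.73, adjusted p = 0.00858). In cardiomyocyte-like nuclei it did not pass (log2 1.23, adjusted p = 0.25), but Nr1d2, a repressor of Arntl, fell there from 115 and 114 to 63.5 and 57.6 CPM (log2 −0.92, adjusted p = 0.0393). Hlf, an output gene of the same family as Dbp, fell in fibroblast-like nuclei from 242 and 257 to 146 and 149 CPM (log2 −0.76, adjusted p = 0.0482) and in cluster 0 (log2 −0.99, adjusted p = 0.0103). It lay with both R403Q-EMPA libraries below both controls in 9 of the 9 groups tested. Dbp was below 0 in 8 of 8 groups and fell in cluster 0, from 46.5 and 63.8 to 16.0 and 6.88 CPM (log2 −2.24, adjusted p = 0.00284). Clock itself was above 0 in 10 of 10 groups, by at most 0.51, and passed in none. The change of Npas2, a partner of BMAL1 that can stand in for CLOCK, differed between classes, being lower in cardiomyocyte-like than in fibroblast-like nuclei by 1.27 (adjusted p = 0.0156). The hour of tissue collection could not be set beside these values.

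**Figure D3:**
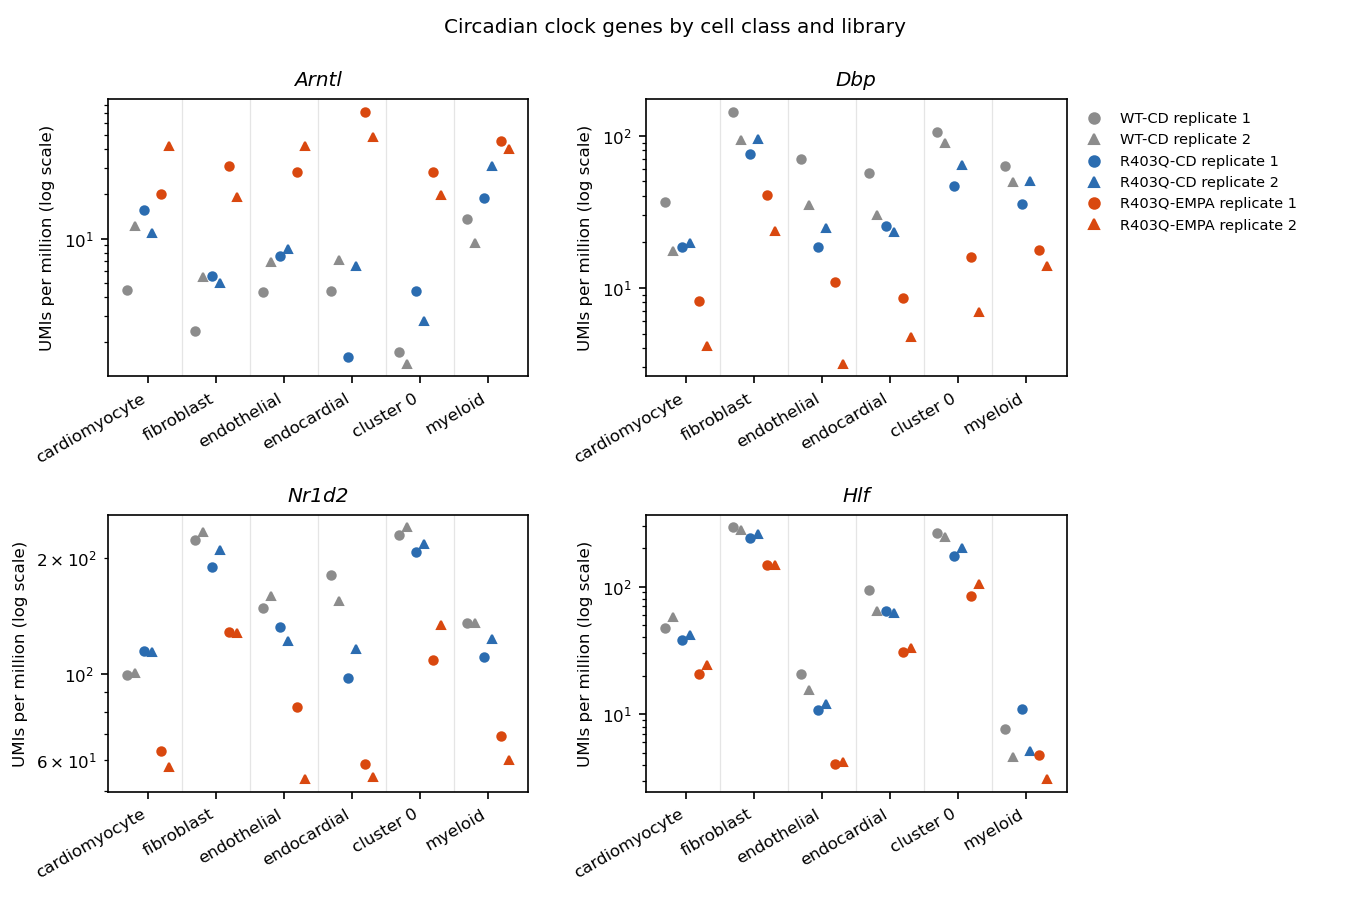
CPM of clock genes by library in the largest cell groups, on a log axis, with 1 point per library of the 3 groups and 1 panel each for Arntl, Dbp, Nr1d2 and Hlf. Arntl is higher in both R403Q-EMPA libraries of fibroblast-like nuclei, at 31.0 and 19.02 against 5.60 and 5.04 CPM, while Hlf is lower in both.

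In cardiomyocyte-like nuclei 37 of 14380 genes passed, 16 higher (0.111%) and 21 lower (0.146%). The sarcomere genes Tpm2 and Myl7 rose, and the metabolic and calcium lists held no gene that passed. Tpm2, beta-tropomyosin, was at 1.83 and 1.29 CPM in R403Q-CD and 16.7 and 8.86 CPM in R403Q-EMPA (log2 3.05, adjusted p = 0.0254), with WT-CD at 1.68 and 1.51 CPM. Myl7, the atrial light chain, gave 2 and 2 UMIs against 98 and 34, or 0.203 and 0.171 against 6.55 and 2.93 CPM (log2 4.60, adjusted p = 0.0427). Both R403Q-EMPA libraries were above the controls, replicate 1 more than replicate 2. Of the atrial marker list only Myl7 passed, Bmp10 was at 0, and the list summed to 736 and 678 CPM in R403Q-CD and 381 and 491 CPM in R403Q-EMPA. Of its 6 tested genes, 3 lay above both controls in both treated libraries and 1 below, with a median log2 fold change of 0.60, so the sum and the median differed in sign. The neuronal channel subunit gene Unc80 rose from 0.813 and 0.857 to 4.28 and 6.11 CPM (log2 2.61, adjusted p = 0.0399).

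Among hypertrophy and fetal genes 2 of 17 passed (Tpm2 and Myl7), with 10 of 17 above the controls in both libraries, against 27.2% of all genes, and a median of 0.58. Nppa (ANP), a marker of wall stress, was at 142 and 238 CPM in R403Q-CD and 1401 and 356 CPM in R403Q-EMPA, and did not pass (log2 2.21, adjusted p = 0.128). R403Q-EMPA replicate 1 was about 4-fold above replicate 2, and WT-CD was at 59.9 and 36.5 CPM. Nppb (BNP) was at 40.3 and 74.4 against 116 and 114 CPM (log2 1.00, adjusted p = 0.126). Myh7, the fetal myosin, was at 419 and 391 against 400 and 331 CPM (log2 −0.15, adjusted p = 0.788), and Myh6 at 9398 and 8730 against 8099 and 7706 CPM (log2 −0.20, adjusted p = 0.809).

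Lower genes were led by Tmem266, a voltage-sensor protein gene, which fell from 6.51 and 5.91 to 1.40 and 1.38 CPM (log2 −2.15, adjusted p = 0.0308). Phactr1, a regulator of protein phosphatase 1 and actin, fell from 67.3 and 65.8 to 23.5 and 19.7 CPM (log2 −1.62, adjusted p = 0.0127), and Gm57466 from 32.4 and 38.2 to 13.8 and 11.3 CPM (log2 −1.49, adjusted p = 0.0162). The naming rule required that the groups not overlap in these genes. Dhrs3, which reduces retinal to retinol, fell from 105 and 84.5 to 29.5 and 32.8 CPM (log2 −1.60, adjusted p = 0.042), below the 35.2 and 65.4 CPM of WT-CD. Angpt1, a ligand of the endothelial receptor Tek, fell from 416 and 316 to 148 and 134 CPM (log2 −1.38, adjusted p = 0.0324), away from the 429 and 345 CPM of WT-CD. The myosin kinase gene Mylk4, chosen after its values were seen, was at 206 and 247 against 68.2 and 108 CPM (log2 −1.36, adjusted p = 0.0477), with WT-CD at 554 and 573 CPM.

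**Figure D4:**
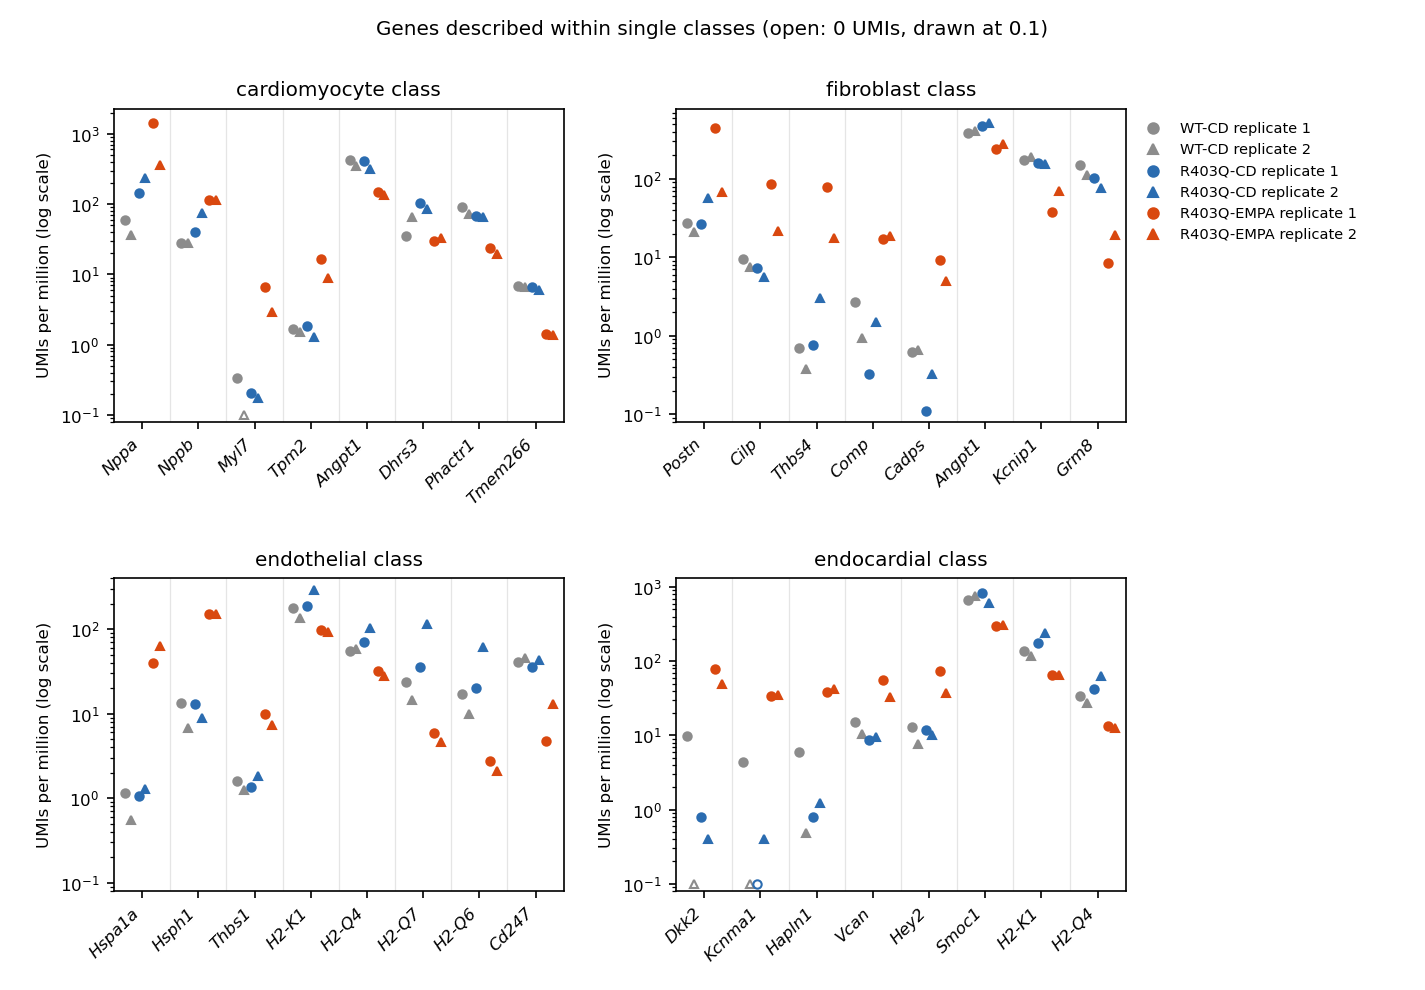
CPM by library of leading genes within cardiomyocyte-like, fibroblast-like, endothelial-like and endocardial-like nuclei, on a log axis, with 1 point per library of the 3 groups and open points for 0 UMIs. Tpm2 and Comp are higher and Angpt1 and Grm8 lower in both R403Q-EMPA libraries, as for Grm8 at 8.58 and 19.2 against 104 and 77.2 CPM.

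No gene of the lists on fuel use and ion handling passed in cardiomyocyte-like nuclei. Of fatty acid oxidation 0 of 22 genes passed, with a median of −0.05 (edgeR, 0 at an unadjusted p under 0.05, 0 by DESeq2). Of glycolysis 0 of 21 passed, with a median of 0.22 and 10 genes above the controls in both libraries, against 27.2% of all genes (9 at an unadjusted p under 0.05, 3 by DESeq2). There Pfkp was at log2 0.93, Tpi1 at 0.88, Eno1 at 0.84 and Pfkfb1 at −1.09 (adjusted p = 0.0682). Of branched-chain amino acid catabolism 0 of 20 passed, with a median of −0.23 and 11 genes below the controls in both libraries, against 25.2% of all genes (6 at an unadjusted p under 0.05, 2 by DESeq2). Pdk4, which turns glucose oxidation down, was at 155 and 519 CPM in R403Q-CD and 107 and 107 CPM in R403Q-EMPA (log2 −1.66, adjusted p = 0.25). The R403Q-CD libraries differed more from each other than replicate 1 did from the treated libraries. Of the nuclear genes of the respiratory chain 0 of 83 passed, with a median of 0.14 (6 at an unadjusted p under 0.05), and of ketone use 0 of 5, with a median of 0.16 (0 at an unadjusted p under 0.05). Calcium handling (0 of 15, median −0.02) and sodium handling (0 of 13, median −0.07) had 1 gene each at an unadjusted p under 0.05, and DESeq2 called 0 in each of these 4 lists. Of calcium handling, Ryr2, the calcium release channel, was at log2 −0.01 and Atp2a2 (SERCA2) at −0.30.

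The cardiomyocyte count rested on few libraries. It was 1 without R403Q-CD replicate 1, 0 without R403Q-CD replicate 2 (edgeR, 1078 genes at an unadjusted p under 0.05, smallest adjusted p 0.0934), 3 without R403Q-EMPA 1, 58 without R403Q-EMPA 2, and 244 and 232 without WT-CD 1 and 2. Median depth of these nuclei was 10395 and 12023 UMIs in R403Q-CD against 9117 and 6887.5 in R403Q-EMPA, and their median mitochondrial percent was 0.779% and 0.857% against 1.17% and 1.26%. It was likewise higher in both treated libraries in fibroblast-like nuclei (1.79% and 1.91% against 2.22% and 3.18%) and endothelial-like nuclei (2.53% and 2.65% against 2.94% and 3.84%). Clusters also shifted within the class. Cluster 15, led by Gm49808, Ryr3 and Nppb, held 50 and 133 nuclei of R403Q-CD and 685 and 417 of R403Q-EMPA, and the part of such shifts in the class's values was not tested.

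In fibroblast-like nuclei 61 of 15081 genes passed, 32 higher (0.212%) and 29 lower (0.192%). The higher genes included Comp and Thbs4, the genes of the fibroblast activation list that passed, and the lower gene with the greatest change was the glutamate receptor gene Grm8. Comp, a matrix protein that binds collagen, was at 0.329 and 1.502 CPM in R403Q-CD and at 17.3 and 18.8 CPM in R403Q-EMPA (log2 4.27, adjusted p = 0.0299). Thbs4, of the same thrombospondin family, was at 0.768 and 3.00 against 79.7 and 17.4 CPM (log2 4.69, adjusted p = 0.0482). Comp was even in the treated pair and Thbs4 was mostly of replicate 1. Cadps, a factor of vesicle release, was at 0.110 and 0.322 against 9.25 and 4.95 CPM (log2 4.97, adjusted p = 0.0299). Neil3, a DNA glycosylase gene, gave 0 and 1 UMIs against 44 and 10, 82.3-fold more in pooled UMIs (counting interval 14.2 to 3310), and Gm20629 gave 1 and 2 against 44 and 22, 33.5-fold more in pooled UMIs (counting interval 11.0 to 167). Erbb4, a neuregulin receptor gene chosen after its values were seen, was at 8.34 and 4.72 against 77.9 and 54.7 CPM (log2 3.35, adjusted p = 0.0305).

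The fibroblast activation list had 2 of 21 genes that passed (Comp and Thbs4), 19 of 21 above the controls in both libraries, against 26.1% of all genes, and a median of 1.66. Postn (periostin) was at 26.5 and 57.8 CPM in R403Q-CD and 448 and 68.2 CPM in R403Q-EMPA (log2 2.62, adjusted p = 0.177). Cilp was at 7.35 and 5.58 against 86.9 and 21.4 CPM (log2 3.09, adjusted p = 0.0628). For both, replicate 1 of R403Q-EMPA carried most of the difference, and replicate 2 lay nearer the controls. Lox, which crosslinks collagen, was at log2 1.01 (adjusted p = 0.0834), Acta2, the smooth muscle actin of myofibroblasts, at 0.53, and Fap at −0.60. Of collagen genes 0 of 36 passed (edgeR, 21 at an unadjusted p under 0.05, 8 by DESeq2), with a median of 0.47, 18 above both controls in both treated libraries, against 26.1% of all genes, and 9 below, against 25.9%. A cluster led by Thbs4 held 19 and 28 nuclei of R403Q-CD and 400 and 80 of R403Q-EMPA, and a cluster led by Grm8 held 1065 and 874 against 172 and 450. The part of these shifts in the class's values, and in its differences from other classes, was not tested.

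Grm8 fell from 104 and 77.2 to 8.58 and 19.2 CPM (log2 −2.75, adjusted p = 0.0299), and its WT-CD levels were 151 and 111 CPM. Kcnip1, a subunit of potassium channels, fell from 161 and 156 to 38.1 and 69.95 CPM (log2 −1.56, adjusted p = 0.0433), and Atp1a4 and Hunk fell by 1.77 and 1.58 on the log2 scale. Both R403Q-EMPA libraries were low in each, as the naming rule required, though for Grm8 and Kcnip1 the treated pair differed about 2-fold between themselves. Nr1h4 fell here from 78.1 and 75.9 to 39.4 and 39.8 CPM (log2 −0.96, adjusted p = 0.0299), and Angpt1 from 480 and 512 to 238 and 281 CPM (log2 −0.94, adjusted p = 0.0433), as it did in cardiomyocyte-like nuclei. The change of Grm8 differed between cardiomyocyte-like and fibroblast-like nuclei by 2.87 (adjusted p = 0.0111), and that of Tpm2 by 3.04 (adjusted p = 0.00261). The count of 61 became 0 without R403Q-CD 1 (edgeR, 891 genes at an unadjusted p under 0.05), 0 without R403Q-CD 2 (1105 genes), 2 without R403Q-EMPA 1, 280 without R403Q-EMPA 2, and 302 and 296 without WT-CD 1 and 2. Without the mitochondrial limit it was 3, and Neil3, Cadps, Gm20629, Thbs4, Grm8, Atp1a4, Hunk and Kcnip1 did not pass.

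In endothelial-like nuclei 34 of 13996 genes passed, 27 higher (0.193%) and 7 lower (0.05%). Chaperones and P4ha1 led the higher genes, and class I antigen presentation genes led the lower ones. Thbs1, a secreted inhibitor of vessel growth, rose from 1.35 and 1.84 to 10.0 and 7.40 CPM (log2 2.47, adjusted p = 0.044). Without the mitochondrial limit Thbs1 did not pass (log2 2.33, adjusted p = 0.0956). H2-Q7 was at 35.8 and 114.5 CPM in R403Q-CD and at 5.98 and 4.58 CPM in R403Q-EMPA (log2 −3.76, adjusted p = 0.044), and H2-Q6 at 19.9 and 60.8 against 2.78 and 2.12 CPM (log2 −3.96, adjusted p = 0.0443). These 2 class I genes are near-identical copies that may share reads. H2-Q4 was at 70.7 and 104 against 31.6 and 27.8 CPM (log2 −1.54, adjusted p = 0.0246). The R403Q-EMPA libraries agreed within each gene, while R403Q-CD replicate 2 was above replicate 1. Over the alternatives the log2 change ranged from −4.37 to −2.70 for H2-Q7 and from −4.55 to −2.95 for H2-Q6. Both were smallest without R403Q-CD 2.

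The classical class I gene H2-K1 was at 190 and 293 CPM in R403Q-CD and at 98.3 and 92.0 CPM in R403Q-EMPA (log2 −1.34, adjusted p = 0.0602), with WT-CD at 179 and 134 CPM. Of the antigen presentation list 3 of 18 passed, 9 lay below the controls in both libraries, against 23.9% of all genes, and the median was −0.53. In fibroblast-like nuclei 0 of 16 passed (edgeR, 2 at an unadjusted p under 0.05, 0 by DESeq2) and the median was 0.04. The difference between these classes passed for H2-K1 (1.36, adjusted p = 0.00384), B2m, the light chain of class I molecules (1.15, adjusted p = 0.0116), and H2-D1 (0.91, adjusted p = 0.0306), each lower in endothelial-like nuclei. In endocardial-like nuclei H2-K1 fell from 179 and 239 to 65.3 and 64.4 CPM (log2 −1.70, adjusted p = 0.0039) and H2-Q4 from 42.3 and 62.4 to 13.3 and 12.5 CPM (log2 −2.04, adjusted p = 0.00869). In cluster 0, 0 of 15 passed (edgeR, 0 at an unadjusted p under 0.05, 0 by DESeq2), with a median of 0.42, 7 genes above both controls in both treated libraries, against 20.8% of all genes, and 1 below, against 21.3%. Cd247 also fell in endothelial-like nuclei, from 35.8 and 43.2 to 4.80 and 13.0 CPM (log2 −2.39, adjusted p = 0.0425), but did not pass without R403Q-EMPA 1 (log2 −1.60, adjusted p = 0.213) or without the mitochondrial limit (adjusted p = 0.0604). The lymphoid marker list, which includes Cd247, summed to 3137 and 3268 CPM there in R403Q-CD and 3056 and 2751 CPM in R403Q-EMPA, with Pax5 and Ms4a1 at 0. All 5 erythroid markers were lower in both treated libraries in these nuclei, with a sum of 803 and 1457 against 747 and 466 CPM, as they were in fibroblast-like nuclei, and their part in the results was not tested. Sidt1 fell by 1.59 on the log2 scale (adjusted p = 0.044), and did not pass without the mitochondrial limit (log2 −1.40, adjusted p = 0.0955). Angiogenic ligands and receptors were near level, 0 of 19 passing (edgeR, 3 at an unadjusted p under 0.05, 0 by DESeq2), with Flt1 at log2 0.02, Kdr at −0.02 and Tek at −0.13. DESeq2 called 128 genes in this class, 78 higher and 50 lower. The count of 34 became 10, 4, 9 and 77 without R403Q-CD 1, R403Q-CD 2, R403Q-EMPA 1 and R403Q-EMPA 2, and 179 and 165 without WT-CD 1 and 2.

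Endocardial-like nuclei, which line the chamber, had the most genes that passed, 75 of 11528, with 60 higher (0.52%) and 15 lower (0.13%). Dkk2, a secreted regulator of Wnt signalling, gave 1 and 1 UMIs in R403Q-CD against 200 and 82 in R403Q-EMPA, 126-fold more in pooled UMIs (counting interval 34.5 to 1040, adjusted p = 0.00882). WT-CD gave 20 and 0. Kcnma1, the large-conductance potassium channel, gave 0 and 1 against 88 and 59, 131-fold more in pooled UMIs (counting interval 23.2 to 5215, adjusted p = 0.00869). DESeq2 called neither Dkk2 (adjusted p = 0.117) nor Kcnma1 (adjusted p = 0.15). Hapln1 was at 0.798 and 1.22 CPM against 38.7 and 42.9 CPM (log2 5.16, SE 0.62, adjusted p = 0.00513). In these 3 genes the treated libraries stood far above the controls, and 1 WT-CD library also showed some signal. Vcan (versican), a proteoglycan that binds hyaluronan, went from 8.78 and 9.38 to 56.3 and 32.8 CPM (log2 2.30, adjusted p = 0.013), and Hey2, a Notch target, from 12.0 and 10.2 to 74.3 and 37.0 CPM (log2 2.37, adjusted p = 0.0165). Vcan and Hey2 were chosen after their values were seen. Slc8a1, the sodium-calcium exchanger, rose from 98.9 and 98.3 to 450 and 205 CPM (log2 1.74, adjusted p = 0.044), and the cell cycle inhibitor gene Cdkn1a from 7.98 and 7.34 to 41.5 and 34.6 CPM (log2 2.33, adjusted p = 0.0141).

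Lower endocardial genes included the marker Smoc1, a matrix protein, which fell from 839 and 607 to 302 and 304 CPM (log2 −1.25, adjusted p = 0.0141). Egr1, an immediate early transcription factor, fell from 53.5 and 57.5 to 23.1 and 19.1 CPM (log2 −1.38, adjusted p = 0.0142), and Acr from 27.9 and 17.5 to 6.65 and 5.96 CPM (log2 −1.77, adjusted p = 0.0495), which DESeq2 did not call (adjusted p = 0.0933). The 6 endocardial markers summed to 16556 and 14309 CPM in R403Q-CD and to 8725 and 11257 CPM in R403Q-EMPA, with 4 of 6 lower in both treated libraries, against 22.6% of all genes. The cardiomyocyte markers there summed to 2031 and 1449 against 1608 and 2120 CPM, so their ranges overlapped. Summed markers of some other cell types were higher without overlap, the 8 fibroblast markers at 804 and 865 against 964 and 979 CPM (5 of 8 above in both treated libraries and 2 below), the 6 lymphatic endothelial markers at 198 and 246 against 337 and 322 CPM and the 8 endothelial markers at 7054 and 7563 against 7983 and 7871 CPM. Of the endothelial markers 2 of 8 lay above and 3 below in both treated libraries, with a median of 0.04, so the sum does not stand for most of them. Summed erythroid markers were lower, at 393 and 600 against 265 and 184 CPM, as were the 6 pericyte markers, at 91.0 and 92.0 against 68.8 and 80.5 CPM. These levels and the lower level of the class's own markers moved with the gene changes, and their part in them was not tested. The count of 75 became 17, 2, 15 and 178 without R403Q-CD 1, R403Q-CD 2, R403Q-EMPA 1 and R403Q-EMPA 2, and 237 and 229 without WT-CD 1 and 2.

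In cluster 0, 67 of 11959 genes passed, 46 higher (0.385%) and 21 lower (0.176%). Its pericyte markers summed to 10982 and 11265 CPM in R403Q-CD and 10365 and 10023 CPM in R403Q-EMPA. P4ha1, a subunit of the collagen prolyl hydroxylase, went from 227 and 202 to 577 and 674 CPM (log2 1.54, SE 0.15, adjusted p = 0.000137), P4ha2, of the same enzyme family, from 16.4 and 11.5 to 41.8 and 37.8 CPM (log2 1.52, adjusted p = 0.0163) and Plod1, a lysyl hydroxylase, from 47.0 and 33.3 to 71.4 and 103 CPM (log2 1.12, adjusted p = 0.0377). P4ha2 and Plod1 were chosen after their values were seen. The mitochondrial chaperonin genes Hspd1 and Hspe1 rose by 1.38 and 1.37 (adjusted p = 0.00169 and 0.0224). Mthfd1l, of mitochondrial folate metabolism, fell from 99.2 and 129 to 46.4 and 28.4 CPM (log2 −1.60, adjusted p = 0.00358). The count of 67 became 15, 10 and 29 without R403Q-CD 1, R403Q-CD 2 and R403Q-EMPA 1, and 195 and 174 without WT-CD 1 and 2.

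In myeloid-like nuclei 10 of 10792 genes passed, 4 higher (0.0371%), all of them chaperones or Ahsa2, and 6 lower (0.0556%). Etv5, a transcription factor of the ETS family, fell from 131 and 102 to 27.2 and 47.7 CPM (log2 −1.74, adjusted p = 0.0261), and Gm39816 from 174 and 153 to 54.4 and 67.7 CPM (log2 −1.46, adjusted p = 0.0142). Hdac9, a histone deacetylase gene chosen after its values were seen, was at 1624 and 1724 against 634 and 727 CPM (log2 −1.30, adjusted p = 0.0142). That the treated libraries were low in all 3 follows from how these genes were chosen. The count of 10 became 1 without either R403Q-CD library, 0 without R403Q-EMPA 1 (edgeR, 804 genes at an unadjusted p under 0.05, smallest adjusted p 0.186), 32 without R403Q-EMPA 2 and 23 without either WT-CD library.

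The 4 smallest groups gave 11 calls in 21186 tests (0.0519%). In smooth muscle-like nuclei the phosphodiesterase gene Pde10a rose from 46.7 and 119 to 1413 and 358 CPM (log2 3.41, adjusted p = 0.00171) and Zfp804b fell from 654 and 340 to 26.2 and 44.8 CPM (log2 −3.88, adjusted p = 0.00171), from 31 to 45 nuclei per library. Without R403Q-EMPA 1, Pde10a did not pass (log2 2.03, adjusted p = 0.0768). In epicardial-like nuclei Cd38, an enzyme that consumes NAD, fell from 242 and 244 to 28.4 and 47.4 CPM (log2 −2.74, adjusted p = 0.0264). DESeq2 did not call it (adjusted p = 0.942), and it missed the threshold with the R403Q libraries alone (adjusted p = 0.0756), without R403Q-CD 2 (adjusted p = 0.162) and without R403Q-EMPA 1 (adjusted p = 0.19). Nr4a3 gave 18 and 15 UMIs in R403Q-CD there and 0 in both R403Q-EMPA libraries, at least 8.36-fold lower against a floor of 3 counts over the group. In lymphoid-like nuclei Dmd (dystrophin) rose from 72.1 and 81.0 to 604 and 1113 CPM (log2 3.44, adjusted p = 0.000852), where the cardiomyocyte markers summed to 2042 and 2649 CPM in R403Q-CD and 2578 and 3900 CPM in R403Q-EMPA. Without the mitochondrial limit Dmd did not pass (log2 1.38, adjusted p = 0.208). With 1 library left out, the 11 calls became 65 without R403Q-CD 1, 15 without R403Q-CD 2, 16 without R403Q-EMPA 1, 52 without R403Q-EMPA 2, and 110 and 97 without WT-CD 1 and 2.

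Shares of nuclei were compared last, since the sums over all nuclei depend on them. Cardiomyocyte-like nuclei made up 12.9% (Wilson 95% interval 12.2 to 13.7) and 14.2% (13.4 to 15.0) of R403Q-CD nuclei and 19.5% (18.7 to 20.4) and 25.1% (24.0 to 26.1) of R403Q-EMPA nuclei, a difference of 8.75 percentage points with an exact permutation p of 0.3333. The difference was 5.07 points without the mitochondrial limit and 5.99 to 11.5 points with 1 library left out, lowest without R403Q-EMPA 2. The groups did not overlap, but 2 against 2 libraries cannot give a two-sided p below 0.3333. Lymphoid-like nuclei made up 1.41% (1.17 to 1.71) and 1.29% (1.05 to 1.59) against 0.756% (0.588 to 0.971) and 0.733% (0.552 to 0.974), and cluster 0 made up 10.4% and 10.5% against 5.08% and 8.88%. Without the mitochondrial limit the groups of cluster 0 overlapped (7.94% and 7.58% against 3.88% and 8.09%, exact permutation p = 1), and its difference of −3.45 points became −1.77, and −1.55 without R403Q-EMPA 1. Endocardial-like nuclei made up 4.45% and 7.59% against 8.25% and 9.22%, a difference of 2.71 points. It was 2.52 points without the mitochondrial limit and 1.14 to 4.28 points with 1 library left out, lowest without R403Q-CD 1. Endothelial-like nuclei (30.6% and 29.3% against 36.0% and 19.9%) and fibroblast-like nuclei (31.5% and 28.4% against 20.9% and 29.1%) overlapped between the groups. Intervals cover counting error only. Cardiomyocyte markers over all nuclei summed to 23615 and 23889 CPM in R403Q-CD and 26849 and 35397 CPM in R403Q-EMPA, in the direction of the share. The 5 erythroid markers, signs of retained blood, summed to 947 and 1964 against 434 and 201 CPM, all 5 lower in both treated libraries. The part of these differences in the results over all nuclei was not tested beyond the fit with equal nuclei per class.

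**Figure D5:**
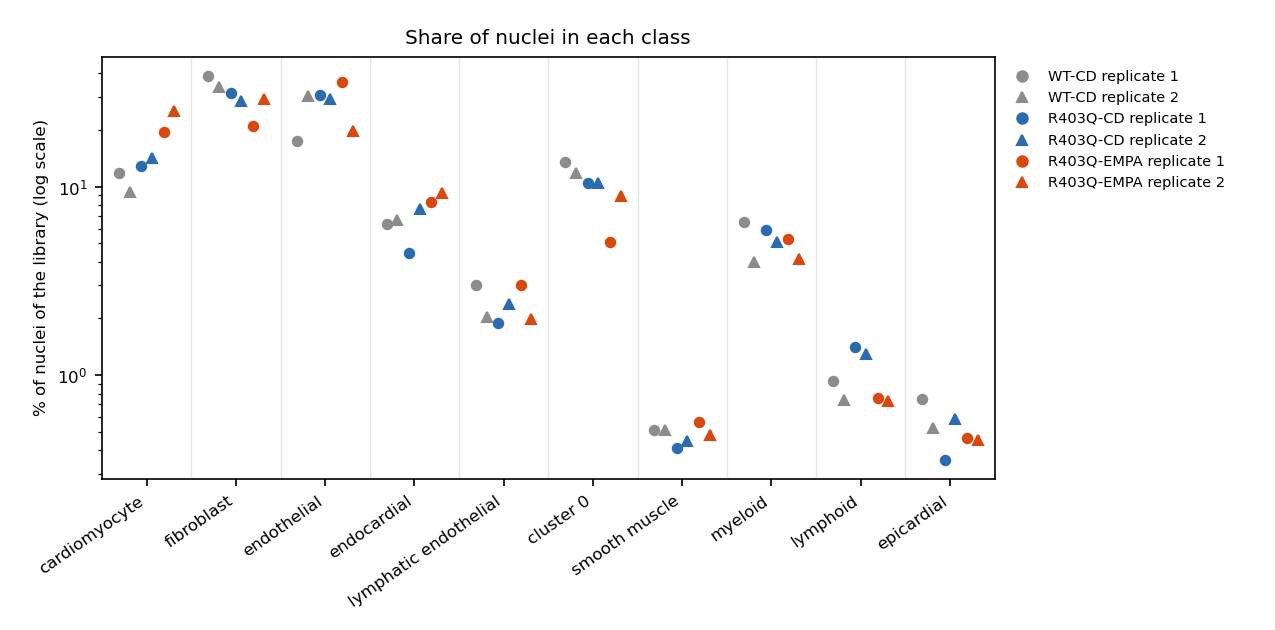
Percent of nuclei in each cell group by library, for WT-CD, R403Q-CD and R403Q-EMPA, with 1 point per library. Cardiomyocyte-like nuclei are at 19.5% and 25.1% in R403Q-EMPA and 12.9% and 14.2% in R403Q-CD, while the endothelial-like points of R403Q-EMPA lie on both sides of the controls.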

How the data were processed

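The authors deposited UMI counts per gene and barcode, made with Cell Ranger 8.0.1 on GRCm39 per the submitters' processing notes. These counts hold 33696 genes and 69249 barcodes in 6 libraries, 2 in each of WT-CD, R403Q-CD and R403Q-EMPA, from left ventricle. Groups came from the labels, and no unmapped column was used. Barcodes with at least 500 UMIs, 300 genes and at most 5% mitochondrially encoded UMIs were kept, and counts were summed per library. For classes, predicted doublets were removed (scrublet in scanpy 1.11.5), which left 46005 nuclei. These were clustered (2000 variable genes, 30 components, 15 neighbours, Leiden resolution 1) into 21 clusters, which were named when at least 3 fixed markers were enriched. In all, 32 nuclei stayed unnamed. Classes with at least 20 nuclei per library were tested.

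Sums passed filterByExpr and TMM scaling, and the quasi-likelihood test of edgeR 4.0.16 (R 4.3.3) was fitted to the 6 libraries together (3 residual degrees of freedom). P-values were adjusted by Benjamini-Hochberg over all genes of a fit. A gene passed at an adjusted p under 0.05. Differences between classes were tested with library as a block. CPM are UMIs per 1000000 UMIs of the sum after TMM scaling, without TMM for sums of marker lists and for barcodes left out. The step was tested on simulated data. Shares were compared by exact permutation tests. Alternatives were DESeq2 1.42.0, RLE size factors, removal of predicted doublets from the sums over all nuclei, no filter on low counts, the 4 R403Q libraries alone, no mitochondrial limit, at least 1000 UMIs, resolution 0.5, the same nuclei per class and each library left out. Promoters were read from RefSeq on GRCm38.p6, which is not the build of the counts, and were matched by symbol.

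Genes were named when they passed, did not overlap between the groups and had at least 40 UMIs, up to 12 in each direction over all nuclei, 4 in the large classes and 2 in the others, besides list genes. For differences between classes, the 3 largest and 3 smallest were named. A few genes that met these rules are not reported here. Members and the 23 gene lists were chosen with earlier results of these data known, so no list is independent evidence of its direction. By the study's methods hearts for RNA sequencing were taken after 2 weeks of diet, and the labels of these libraries name a longer diet than the age of the mice allows.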

Additional observations from a re-analysis of the deposited data

Results flagged for a closer look

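Differences between classes in the change from R403Q-CD to R403Q-EMPA were tested within libraries, and those named by rule or from the gene lists are given here as differences of log2 fold changes. Between cardiomyocyte-like and fibroblast-like nuclei the difference, cardiomyocyte minus fibroblast, was 3.04 for Tpm2, 2.87 for Grm8, 2.87 for Itga8, −5.69 for Spp1, −5.54 for Wif1 and −5.12 for Cadps. Among chaperones it was −1.27 for Hspa4l, −1.33 for Hspb1, −0.88 for Hspa5, −1.25 for Pdia6 and −0.89 for Dnajc3, each smaller in cardiomyocyte-like nuclei. Spp1 gave 17 and 4 UMIs in fibroblast-like nuclei of R403Q-CD and 164 and 20 in R403Q-EMPA. Its difference became −1.06 without R403Q-CD 1 and −7.71 without R403Q-EMPA 1, and passed in neither (adjusted p = 1 and 0.339). That of Wif1 became −3.54 without R403Q-EMPA 1 (adjusted p = 0.489).

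Between cardiomyocyte-like and endothelial-like nuclei the difference was 4.86 for Pcdh11x, 3.63 for Cd247, 3.58 for Adcy7, −6.39 for Gm15987, −5.45 for Hecw1 and −3.02 for Tmem150c. For chaperones it was −1.28 for Hspa4l, −1.56 for Hsph1, −0.76 for Hsp90ab1 and −1.20 for Hspb1. Some moved when 1 library was left out. Pcdh11x became 7.71 without R403Q-EMPA 1 (adjusted p = 0.274) and Hecw1 −8.37 without R403Q-CD 2 (adjusted p = 0.103), both larger but no longer past the threshold. Without R403Q-EMPA 1, Gm15987 became −3.22 (adjusted p = 0.498) and Tmem150c −1.78 (adjusted p = 0.5). Adcy7 became 2.75 without R403Q-CD 2 (adjusted p = 0.339) and 2.84 without R403Q-EMPA 1 (adjusted p = 0.427), and missed the threshold without either WT-CD library (adjusted p = 0.067 and 0.0613). Pcdh11x gave 7 and 7 UMIs in cardiomyocyte-like nuclei of R403Q-CD and 279 and 33 in R403Q-EMPA, Hecw1 gave 9 and 164 against 11 and 5 there, and Gm15987 gave 3 and 3 against 397 and 6 in endothelial-like nuclei.

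Between fibroblast-like and endothelial-like nuclei the difference was 6.11 for Spp1, 5.25 for Neil3, 5.19 for Egfem1, −2.25 for Gm15345 and −1.65 for Hsph1. Without R403Q-CD 1, Spp1 became 0.588 (adjusted p = 1) and Neil3 3.03 (adjusted p = 0.647), and without R403Q-EMPA 1, Gm15345 became −1.05 (adjusted p = 0.788). Without R403Q-CD 2, Neil3 became 8.02 (adjusted p = 0.0652). Egfem1 became 4.18 without R403Q-CD 1 (adjusted p = 0.172) and 4.06 without R403Q-EMPA 1 (adjusted p = 0.0613), and missed the threshold without WT-CD 2 (adjusted p = 0.0506). ER chaperones were higher on the fibroblast side by 0.65 for Pdia3, 1.01 for Pdia4, 0.82 for Pdia6 and 0.69 for Dnajc3. Class I antigen presentation genes were lower on the endothelial side, with differences of 1.36 for H2-K1, 0.91 for H2-D1 and 1.15 for B2m.

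Barcodes over the mitochondrial limit, which entered only the alternative without that limit, made up 34.4% of R403Q-EMPA replicate 1 and 39.0% of replicate 2, above both R403Q-CD libraries. These left-out barcodes carried the same leading genes. Hspa1a was at 2.89 and 1.19 CPM in R403Q-CD and 22.9 and 30.5 CPM in R403Q-EMPA, a 13.1-fold ratio of means. The ratio was 4.55 for Hsph1, 2.75 for Hspa4l and 4.12 for P4ha1, without overlap of the groups. Cd247, Nr1h4 and Egln3 overlapped between the groups in these barcodes.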

How the results depend on the processing

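All 25 heat shock chaperones stayed above 0 in every alternative, with medians from 0.86 to 1.13, while counts of genes moved widely. The 14 genes over all nuclei became 7 with the R403Q libraries alone, 559 by DESeq2, 345 without a filter on low counts, 28 with the same nuclei per class and 0 to 87 with 1 library left out. In cardiomyocyte-like nuclei the count was 207 with the R403Q libraries alone, 218 by DESeq2 and 663 without the filter, and 0 to 244 with 1 library left out. In fibroblast-like nuclei it was 278, 246 and 1021, 3 without the mitochondrial limit, and 0 to 302. In endothelial-like nuclei it was 150, 128 and 503, and 4 to 179, and in myeloid-like nuclei 16, 28 and 120, and 0 to 32. With the R403Q libraries alone and without the filter it was 205 and 495 in endocardial-like nuclei (2 to 237 with 1 library left out), 162 and 245 in cluster 0 (10 to 195), and 29 and 130 in the 4 smallest groups (15 to 110). Differences between classes without the filter numbered 644 for cardiomyocyte against fibroblast (4 to 336 with 1 library left out), 434 for cardiomyocyte against endothelial (40 to 399) and 524 for fibroblast against endothelial (0 to 707). The endothelial-like share difference of −2.03 points became 2.64 without the mitochondrial limit and ranged from −10.08 to 6.03 with 1 library left out, the latter without R403Q-EMPA 2. The lymphatic endothelial-like one of 0.34 ranged from −0.163, without R403Q-EMPA 1, to 0.852, and the epicardial-like one of −0.0139 became 0.00289 without the mitochondrial limit and ranged from −0.130 to 0.102, the latter without R403Q-CD 2. The ER chaperone median of 0.80 ranged from 0.686 to 0.931 with 1 library left out. The cause was not tested. For 74 named results, 803 alternatives gave 571 with the same call, 232 with the call lost and 0 with the other sign, and 6 results passed in every alternative. No paired analysis was possible because replicate numbers follow the order of deposit and pair no libraries. Depth limits low genes such as Slc5a2, for which no difference was detectable.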
